A study of Homo sapiens with 3 samples.

Results

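The NRF2 pathway was examined through 10 of its genes in H2087 cells, an established line from a human lung adenocarcinoma. They were taken by name from 19881 protein-coding genes with a canonical transcript start in GENCODE 44 on hg19, and are NFE2L2, KEAP1, MAFG, BACH1, GCLC, GCLM, SRXN1, HMOX1, SQSTM1 and AKR1C1. The rule uses their names and no measured value, but they were proposed with earlier results of these data known. Chromatin immunoprecipitation followed by sequencing (ChIP-seq) had been performed in untreated cells grown in RPMI medium with fetal bovine serum, with an antibody against histone H3 trimethylated at lysine 4 (H3K4me3) or acetylated at lysine 27 (H3K27ac). Each mark was represented by 1 library and 1 list of peaks, and an input library was not analysed here. No value has a replicate, all samples come from 1 untreated cell line, and no test between groups or marks could be made, so what follows is a description of these libraries.

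NRF2, the protein encoded by NFE2L2, is the transcription factor that switches on antioxidant and detoxifying genes when cells meet oxidants or electrophiles. In unstressed cells KEAP1 holds NRF2 and hands it to a ubiquitin ligase for degradation. NRF2 that escapes pairs with a small MAF protein such as MAFG and binds the antioxidant response element (ARE), for which BACH1, a haem-sensing repressor, competes. The pathway is often activated in lung cancer through changes in KEAP1 or NFE2L2. H3K4me3 is typical of active promoters, and H3K27ac of active promoters and enhancers.

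A peak is a distinct interval of a list. Its value is the last column of the list, which has no header and was read as −log10 q from the numbers alone. The value ranks peaks within 1 list and cannot be compared between the marks. The H3K4me3 list held 18585 peaks and the H3K27ac list 24096. A start was called marked when the edge of a peak lay within 1 kb of it, and the window of a gene was its body with 50 kb on each side. The depth of the libraries is unknown, so too few reads and a missing mark look the same in these lists. As a check of the cell type, 12 markers of lung adenocarcinoma and glandular epithelium were read. H3K27ac was at the start of 8, against 25.5% of all protein-coding starts, and H3K4me3 of 7, against 41.8%. Both marks were at NKX2-1, EPCAM and the keratin genes KRT7, KRT8, KRT18 and KRT19, among others, whereas NAPSA, SFTPB, SFTPA1 and SFTPC had neither. Of 13 markers of squamous, neuroendocrine, blood, endothelial and fibroblast cells, none had H3K27ac and 1 (CD14) had H3K4me3. Endothelial cells were represented by CDH5 alone, since PECAM1, also listed, was not among the 19881 genes used.

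Copies of the sequence that NRF2 is known to bind are shown first, so that their distance from the peaks can be read with each gene. The core of the ARE was searched on both strands as TGACNNNGC, and in its form TGACTCAGC, which also contains the AP-1 site TGACTCA. Within 10 kb of the canonical starts, 12 copies of TGACTCAGC were found at 6 members. Printed below are the 6 copies within 1 kb of a peak, the HMOX1 copy nearest to its start and the AKR1C1 copy, with 10 bases on each side, on the strand that reads TGACTCAGC, with the core in capitals and with the distance of its centre from the start in bases, negative when upstream.
SQSTM1, −348 (chr5:179247543-179247571, minus strand): ggcctggccaTGACTCAGCaatatcctca
SQSTM1, −1316 (chr5:179246575-179246603, minus strand): tggccaagcgTGACTCAGCagcccaggcg
MAFG, 764 (chr17:79884833-79884861, plus strand): ctcacgctgaTGACTCAGCaagtctccct
MAFG, 4114 (chr17:79881483-79881511, plus strand): cgagtcacgcTGACTCAGCacattgcctc
GCLC, −3152 (chr6:53413037-53413065, plus strand): cgcctccccgTGACTCAGCgctttgtgcg
BACH1, 1398 (chr21:30672627-30672655, minus strand): ctggggcgaaTGACTCAGCaacccaactt
HMOX1, −3936 (chr22:35773139-35773167, minus strand): gaggcactggTGACTCAGCaaaatctagc
AKR1C1, −6339 (chr10:4999254-4999282, minus strand): gcagtcagggTGACTCAGCagcttgcaca
Another 3 matches of the wider core, TGACNNNGC, are shown because they lie in a member's promoter or under peaks of both marks at a member's start.
GCLM, −30 (chr1:94375002-94375030, plus strand): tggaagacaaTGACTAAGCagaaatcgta
NFE2L2, 650 (chr2:178128791-178128819, plus strand): agcggccccgTGACTAGGCacatttttgc
MAFG, 624 (chr17:79884973-79885001, plus strand): cggggagagcTGACGCGGCcaccggatga

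Of the 10 starts, 6 carried H3K4me3 (NFE2L2, GCLC, GCLM, SQSTM1, MAFG and BACH1), where 41.8% of all protein-coding starts did. The count was 3 (GCLM, SQSTM1 and MAFG) with the outer end of the gene as the start, where 38.7% of all genes were marked, and the same 3 with the upper part of the list by value, where 29.5% were. H3K27ac lay at 7 starts (NFE2L2, KEAP1, GCLM, SRXN1, HMOX1, SQSTM1 and MAFG), where 25.5% of all starts carried it, and at 3 (SRXN1, SQSTM1 and MAFG) with the upper part of the list, against 16.2%. Both marks were present at 4 starts, NFE2L2, GCLM, SQSTM1 and MAFG, against 20.6% of all starts. H3K27ac without H3K4me3 was found at KEAP1, SRXN1 and HMOX1, 3 of the 10, against 4.91% of all starts. AKR1C1 was the 1 member with neither mark, a state shared by 53.3% of all starts. Across all genes, 80.8% of the starts with H3K27ac also had H3K4me3. With 10 genes these counts are small, and no test was made of their difference from the share over all genes.

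**Figure D1:**
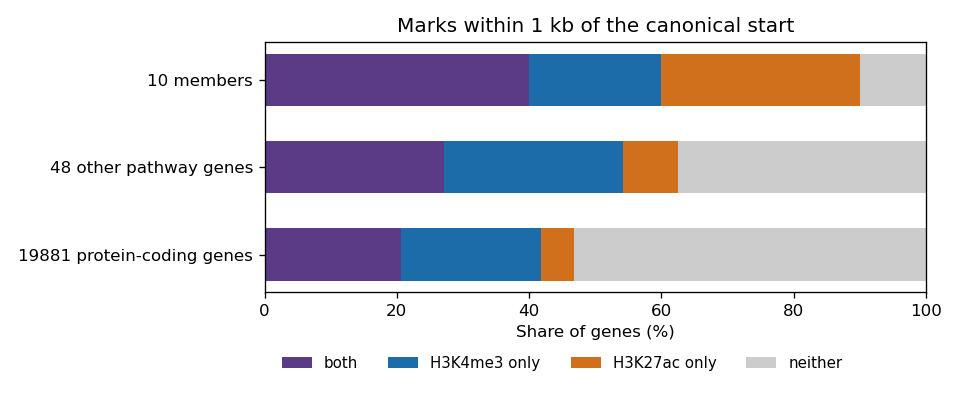
Share of genes (%, horizontal axis) with both marks, H3K4me3 only, H3K27ac only or neither within 1 kb of the canonical start, for the 10 members, 48 other genes of the pathway and all 19881 protein-coding genes. Neither mark was found at 1 of 10 members, at 37.5% of the other pathway genes and at 53.3% of all genes.

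NFE2L2, the gene of the factor itself, lies on the minus strand of chromosome 2 (178083395 to 178257484), and its canonical transcript starts at 178129455. A single H3K4me3 peak of 888 bp with a value of 2.26 lay over the first exon and intron, 158 bp from the start. An H3K27ac peak of 563 bp with a value of 1.74 lay entirely within it. Both values were low in their lists, above 31.6% of the H3K4me3 peaks and 18.3% of the H3K27ac peaks. The ARE core printed above lay under both peaks. The highest H3K27ac values of the NFE2L2 window were not at the start but in the first intron, where 4 H3K27ac peaks stood 17.3 to 21.6 kb downstream. Of these, 2 had a value of 4.32, above 84.8% of the list, and the others 2.82 and 1.55. None of the 4 overlapped an H3K4me3 peak. Part of the sequence under this cluster is repeated in the genome, since 57.1%, 31.0% and 42.9% of the 32-base words in 3 of the peaks occurred more than once, and the part of this in the calls was not tested.

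KEAP1, the sensor that marks NRF2 for degradation, lies on chromosome 19 (10596801 to 10614234, minus strand, start at 10614032). Its window held 1 peak, an H3K27ac peak of 220 bp in the first intron, 734 bp from the start, with a value of 2.16 (above 30.9% of the list). The nearest H3K4me3 peak of any size lay 215 kb away. Of the other 63 protein-coding starts within 1 Mb of KEAP1, 23.8% had H3K4me3 and 7.94% had H3K27ac, both below the share over all genes. Whether the sparse H3K4me3 of the region bears on the KEAP1 start was not tested.

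MAFG, the small MAF partner of NRF2, lies on chromosome 17 (79876146 to 79885611, minus strand, start at 79885611) and had peaks of both marks in the part of its body within 5 kb of the start. The peaks at the start were an H3K4me3 peak with a value of 4.79 (above 81.8% of the list), 613 bp downstream, and an H3K27ac peak with a value of 2.82, 525 bp downstream, which shared 288 bp. The copy of TGACTCAGC at 764 bp and the wider core at 624 bp lay under both. In the body of the gene stood 4 H3K4me3 and 5 H3K27ac peaks, and 4 peaks of each mark overlapped the other. The highest H3K27ac value of the window, 4.99 (above 90.9% of the list), belonged to the remaining peak, in the first intron 2.83 kb from the start. The second copy of TGACTCAGC, at 4114 bp, lay 36 bp from an H3K27ac peak of 4.17 and 193 bp from an H3K4me3 peak of 3.68. The highest H3K4me3 value of the window, 7.77, was at the start of a neighbour, ASPSCR1, 49390 bp away.

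BACH1, the repressor that competes for the ARE, lies on chromosome 21 (30566392 to 31003071, plus strand, canonical start at 30671243). It had 1 H3K4me3 peak of 271 bp in the first intron, 476 bp from the start, with a value of 2.75 (above 41.4% of the list). The copy of TGACTCAGC at 1398 bp lay 648 bp from this peak. No H3K27ac peak was found within 50 kb of the start, and the nearest was 53.9 kb downstream with a value of 1.55. The highest values of the wide BACH1 window, 2.97 for H3K4me3 and 2.82 for H3K27ac, were of a pair of peaks that overlapped by 162 bp far upstream of the canonical start. Of the words in that pair, 87.5% and 50% occurred more than once in the genome, and the part of this in the calls was not tested.

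GCLC and GCLM encode the catalytic and the modifier subunit of glutamate-cysteine ligase, which makes the first step of glutathione synthesis, and they differed in their marks. GCLM (chromosome 1, 94350755 to 94375012, minus strand, start at 94374986) had the highest H3K4me3 value at a member's start, 9.32, above 98.3% of the list. This peak of 708 bp began 16 bp downstream of the start and covered the first exon. A second H3K4me3 peak, with a value of 6.28 (above 91.4%), lay 320 bp upstream, so that the core TGACTAAGC at −30 lay between the peaks. H3K27ac at GCLM was limited to a peak of 274 bp with a value of 1.55, above 8.32% of the list.

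At GCLC (chromosome 6, 53362139 to 53481768, minus strand, start at 53409899) the H3K4me3 peak at the start was one of the lowest of its list, with 214 bp and a value of 1.34, above 0.748% of the peaks. A stronger H3K4me3 peak of 438 bp with a value of 3.76 (above 65.6%) stood 2328 bp upstream. The copy of TGACTCAGC at −3152 lay 383 bp from this upstream peak. H3K27ac was not found at the GCLC start. The nearest H3K27ac peak was in the first intron, 17.2 kb away, with a value of 2.82, the highest of the window. Thus both subunit genes had H3K4me3 at the start, on 891 bp around GCLM and 214 bp around GCLC, while H3K27ac was found at the start of GCLM only.

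**Figure D2:**
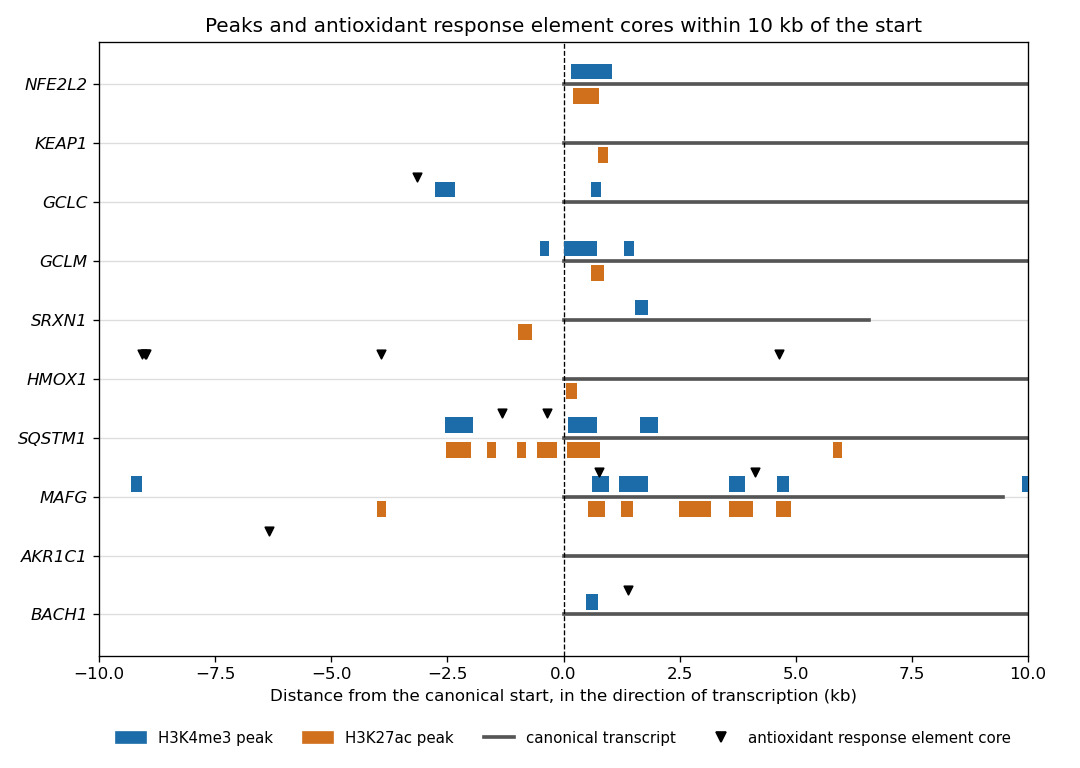
Peaks of H3K4me3 (blue, above each line) and H3K27ac (orange, below) within 10 kb of the canonical start of each member, drawn to scale along the direction of transcription (kb), with the canonical transcript as a dark line and copies of the antioxidant response element core with the TCA spacer as triangles. At SQSTM1 and MAFG the copies lie under or beside peaks, at GCLC and BACH1 beside an H3K4me3 peak, and at HMOX1 and AKR1C1 away from any peak.

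SRXN1 encodes sulfiredoxin, which restores oxidized peroxiredoxins. On chromosome 20 (627259 to 633844, minus strand, start at 633844) an H3K27ac peak of 300 bp with a value of 2.82 (above 52.9% of the list) lay 685 bp upstream of the start. An H3K4me3 peak of 283 bp with a value of 2.97 lay on the other side, in the intron, 1.54 kb downstream, and so was outside the limit of 1 kb. Of the words in this H3K4me3 peak, 69.2% occurred more than once in the genome, and the part of this in the call was not tested. SRXN1 is therefore counted with H3K4me3 when the limit is 3 kb. No copy of TGACTCAGC was found within 10 kb of the SRXN1 start, nor at NFE2L2, KEAP1 or GCLM.

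HMOX1 encodes haem oxygenase, which opens the haem ring. It lies on chromosome 22 (35776354 to 35790207, plus strand, start at 35777089). An H3K27ac peak of 228 bp with a value of 2.39 (above 42.3% of the list) lay over the first exon, 61 bp from the start, and no H3K4me3 peak lay there. The nearest H3K4me3 peak, 19.1 kb downstream, was at the start of the neighbouring gene MCM5 and had a value of 1.34. The highest H3K27ac value of the window, 4, also belonged to a peak at MCM5. Of the words in this H3K27ac peak, 58.8% occurred more than once in the genome, and the part of this in the call was not tested. HMOX1 had 5 copies of TGACTCAGC within 10 kb, the most of any member, of which 3 formed a group between −9073 and −8986 and 1 each stood at −3936 and 4635. The 32-base word at 4635 occurred 79 times in the genome and the words at the other 4 copies once. None of the 5 copies lay under a peak, and the closest H3K27ac peak to any of them was 3.99 kb away.

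SQSTM1 encodes p62, the autophagy adaptor that binds KEAP1 and takes it away from NRF2. It lies on chromosome 5 (179233398 to 179265078, plus strand, canonical start at 179247905). SQSTM1 had the most peaks of the members, 13 of H3K4me3 and 22 of H3K27ac in its window. Most of these, for each mark, were nearer to the canonical start of a neighbour such as LTC4S, MGAT4B or MRNIP. At the canonical start stood 1 H3K4me3 peak with a value of 7.36 (above 95.3% of the list) and 3 H3K27ac peaks with values of 3.74, 3.17 and 7.64. The last of these, above 98.6% of the list, lay over the first exon and contained the whole H3K4me3 peak of 625 bp. The copy of TGACTCAGC at −348 lay under the H3K27ac peak of 3.17, upstream of the start, and that at −1316 lay 134 bp from another H3K27ac peak. A further pair of overlapping peaks stood 2.26 kb upstream, with 6.44 for H3K4me3 and 3.27 for H3K27ac.

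The strongest peaks of the SQSTM1 window were near the outer 5′ end of the gene, upstream of the canonical start. SQSTM1 and MGAT4B, a glycosyltransferase gene, are annotated with outer ends close to each other, and that of SQSTM1 is 14507 bp from its canonical start. The highest H3K4me3 value of the window, 10.8 (above 99.0% of the list), and the highest H3K27ac value, 8.90 (above 99.4%), were both within 1 kb of the MGAT4B start. These peaks cannot be assigned to 1 of the genes from position alone.

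AKR1C1, an aldo-keto reductase that reduces steroids and lipid aldehydes, lies on chromosome 10 (5005445 to 5025475, plus strand, start at 5005607). No peak of either mark was found in its window. Over all protein-coding genes, 29.3% had no H3K4me3 peak in the window and 35.6% had no H3K27ac peak. The nearest H3K27ac peak was 183 kb and the nearest H3K4me3 peak 449 kb away. Its paralogs AKR1C2 and AKR1C3 also had no peak in their windows. The AKR1C2 start lies within the AKR1C1 window, so the windows of these genes overlap and are not separate observations. AKR1C1 differs from the other members in the sequence at its start. Of the 32-base words within 1 kb of it, 61.6% occurred more than once in the genome, against 14.1% for KEAP1, 2.02% for HMOX1 and 0 for each of the others. The ratio of observed to expected CpG in the 1 kb around the start was 0.241, the lowest of the members. How far reads from repeated sequence were kept is not stated in the sources used here, and the part of either property in the lack of peaks was not tested.

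**Figure D3:**
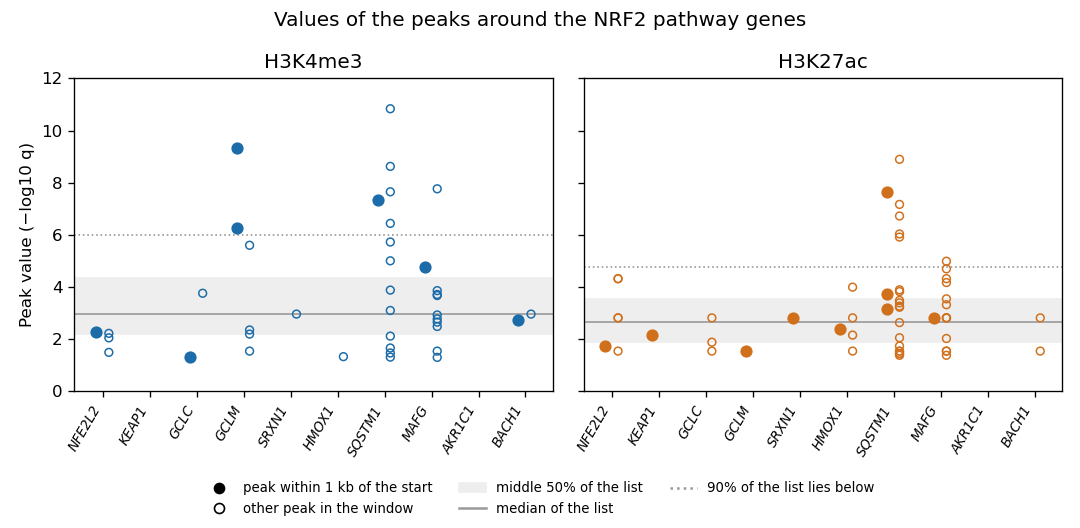
Value (−log10 q) of each peak in the windows of the members, for H3K4me3 (left) and H3K27ac (right), with filled points for peaks within 1 kb of the member's start and open points for the others. The band holds the middle 50% of each list (2.2 to 4.33 and 1.89 to 3.55), the line is its median (2.97 and 2.65), and 90% of the list lies below the dotted line; the filled points above that line belong to GCLM and SQSTM1 for H3K4me3 and to SQSTM1 for H3K27ac.

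Over the members, 7 H3K4me3 peaks at the starts had values from 1.34 to 9.32 with a median of 4.79, and 9 H3K27ac peaks had values from 1.55 to 7.64 with a median of 2.82. The medians of all peaks within 1 kb of a protein-coding start were 3.54 and 2.82. The centre lay downstream of the start for 6 of 7 H3K4me3 and 6 of 9 H3K27ac peaks, against 70.6% and 66.9% of the peaks at all protein-coding starts. GCLM, SQSTM1 and MAFG, in falling order, had the highest H3K4me3 values at the start. For H3K27ac, SQSTM1 stood above the others, which lay between 1.55 and 2.82. The value 2.82 recurred in 10 H3K27ac peaks around the members and in 7.03% of that list, so equal values are common.

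The windows together held 40 H3K4me3 peaks, 0.215% of the list, and 55 H3K27ac peaks, 0.228%. The numbers were very uneven. SQSTM1 and MAFG (11 H3K4me3 and 14 H3K27ac peaks) held 60% and 65.5% of them. NFE2L2 followed with 4 and 6 peaks, GCLM with 6 and 1, HMOX1 with 1 and 5, GCLC with 2 and 3, BACH1 with 2 and 2, SRXN1 with 1 and 1, KEAP1 with 0 and 1, and AKR1C1 with 0 and 0. The median was 2 H3K4me3 and 2.5 H3K27ac peaks per member, against 2 (interquartile range 0 to 4) and 1 (0 to 4) over all protein-coding genes. The SQSTM1 window had more H3K4me3 peaks than 98.2% of all genes and more H3K27ac peaks than 99.2%, and for MAFG these shares were 96.6% and 96.0%. Windows differ in length, from 107 kb at SRXN1 to 537 kb at BACH1, and include the neighbouring genes.

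**Figure D4:**
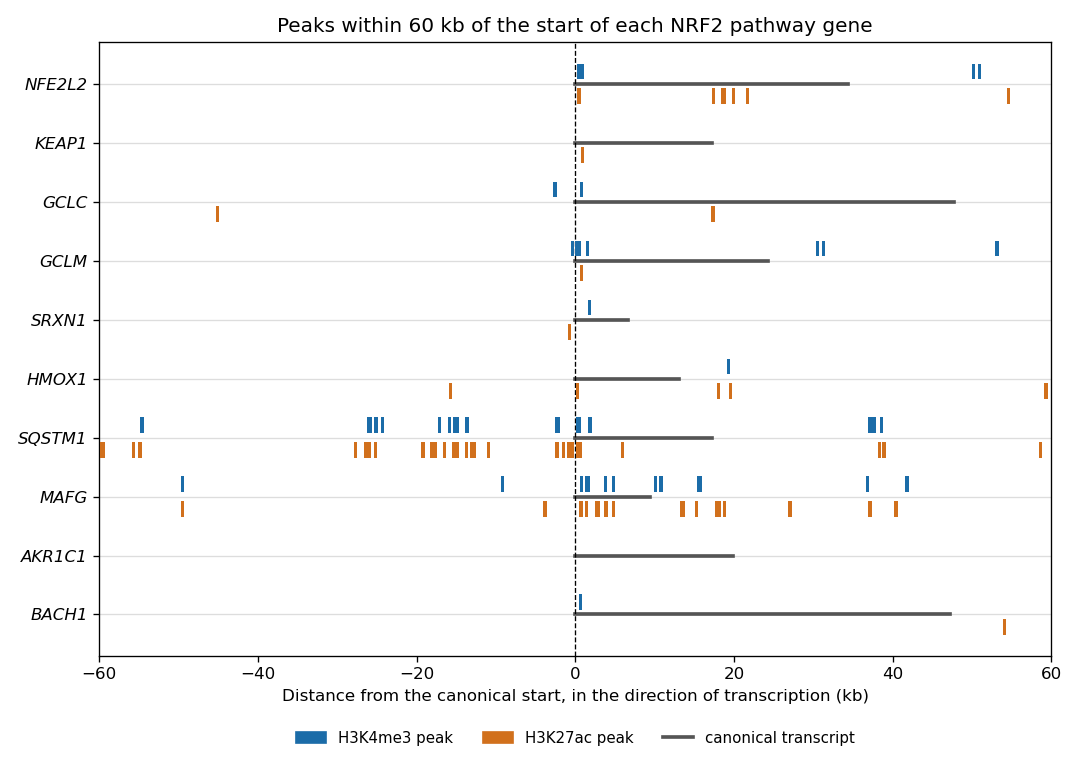
Peaks of H3K4me3 (blue, above) and H3K27ac (orange, below) within 60 kb of the canonical start of each member, by distance along the direction of transcription (kb), with the canonical transcript as a dark line. Bars narrower than 0.4 kb are widened to that size, and 4 of the 95 peaks lie outside the range; the SQSTM1 and MAFG rows are the fullest and the AKR1C1 row is empty.

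Of the 40 H3K4me3 peaks, 7 were at a member's start, 14 at the start of another protein-coding gene and 19 over 1 kb from every protein-coding start (47.5%, the same share as in the whole list). For H3K27ac these numbers were 9, 12 and 34. The 34 peaks away from starts made 61.8% of the 55, against 77.0% of the whole list. In the windows, 19 H3K27ac peaks (34.5%, exact Clopper-Pearson 95% interval 22.2 to 48.6) overlapped an H3K4me3 peak by at least 1 bp, against 24% of the list. SQSTM1 and MAFG gave 15 of these 19. Without them the share was 4 of 19 peaks (21.1%, 6.05 to 45.6). The intervals cover counting error only, and neighbouring peaks are not independent.

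Neighbouring starts also differed between the members. Within 1 Mb, H3K4me3 was found at 92.3% of 13 starts around GCLM, at 67.7% of 62 around MAFG and at 64.0% of 25 around SQSTM1, the members with the highest H3K4me3 values at the start. The other 7 members had between 23.5% (GCLC) and 38.5% (HMOX1) of the neighbouring starts marked, below the 41.8% over all genes. For H3K27ac the share around GCLM was 61.5%, around SQSTM1 40%, around MAFG 38.7% and around HMOX1 30.8%. It was 0 of 8 starts around NFE2L2, which had the mark at its own start. The part of the neighbourhood in the members' values was not tested.

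**Figure D5:**
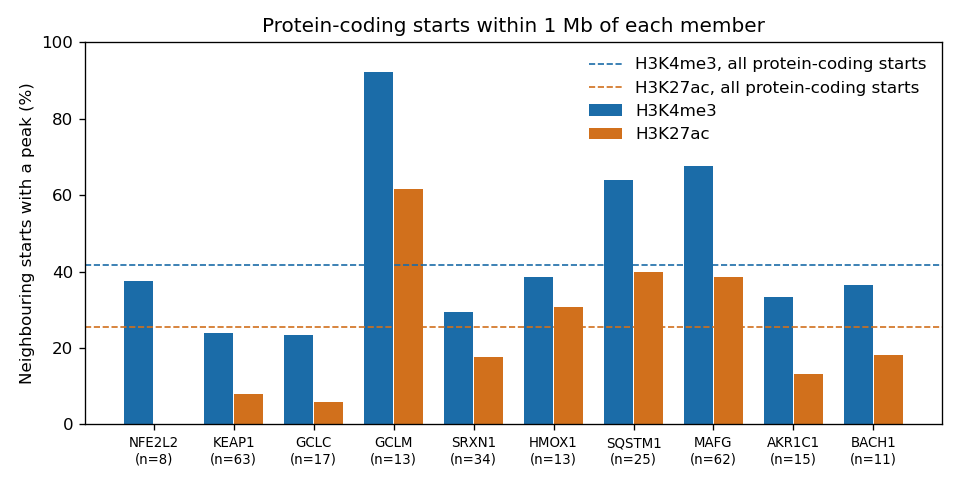
Share (%) of the other protein-coding starts within 1 Mb of each member that had an H3K4me3 (blue) or H3K27ac (orange) peak within 1 kb, with the number of starts under each name and the share over all protein-coding starts as dashed lines (41.8 and 25.5). GCLM, SQSTM1 and MAFG stand above both lines.

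CpG content was compared because H3K4me3 is usual at CpG-rich promoters. The ratio of observed to expected CpG had a median of 0.883 at the members and of 0.725 at all protein-coding starts. The 6 members with H3K4me3 lay between 0.726 (SQSTM1) and 0.967 (GCLC). KEAP1 (0.84) and SRXN1 (0.896), which had H3K27ac without H3K4me3 at the start, were within this range, whereas HMOX1 (0.548) and AKR1C1 (0.241) were below it. Over all genes the median was 0.797 at starts with H3K4me3 and 0.575 at starts without. The part of CpG content in the members' marks was not tested.

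The ARE core was then counted in the 300 bp at the centre of each peak. TGACNNNGC was present in 6 of 40 H3K4me3 peaks of the windows (15%, against 11.5% of the list) and in 6 of 55 H3K27ac peaks (10.9%, against 12.7%), shares near those of the lists. TGACTCAGC was present in 1 H3K4me3 peak (MAFG) and in 2 H3K27ac peaks (MAFG and SQSTM1), that is 2.5% and 3.64%, against 0.323% and 0.465% of the lists. The MAFG copy is the same site under both marks. In the promoters from 250 bases before to 50 after the start, 1 of 10 members (GCLM) held TGACNNNGC, against 14% of all protein-coding promoters.

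Around the starts, TGACTCAGC was found within 10 kb at 6 of 10 members, against 22.7% of all protein-coding genes. At 2 members (SQSTM1 and MAFG, against 2.85% of all genes) a copy lay within 1 kb of an H3K27ac peak, and at 4 members (GCLC, BACH1, SQSTM1 and MAFG, against 2.5%) within 1 kb of an H3K4me3 peak. The 32-base word at the AKR1C1 copy occurred 2 times in the genome, and this copy was 176 kb from the nearest H3K27ac peak. A match of letters is not evidence that a factor was bound, and TGACTCAGC is shared by the ARE and the AP-1 site. The members were chosen as genes of the NRF2 pathway. These shares, and those in the peaks, are therefore no independent test of a link between the sequence and the pathway.

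Other genes of the pathway, 48 in all, were counted by role. H3K4me3 was at the start of 26 (54.2%, against 41.8% of all protein-coding starts), H3K27ac of 17 (35.4%, against 25.5%), both of 13 (27.1%, against 20.6%) and neither of 18 (37.5%, against 53.3%). The groups by role are small and are given as counts only. The thioredoxin genes TXN, TXNRD1 and PRDX1, which reduce protein disulfides and peroxides, had both marks at all 3 starts. Among 6 genes of NADPH supply, 4 had H3K4me3 and 2 had H3K27ac. Of the 8 genes of glutathione synthesis, use and cystine import, 3 had H3K4me3 and 4 had H3K27ac, and GSR, GPX2 and SLC7A11 had neither. The 4 efflux pump genes had H3K4me3 at 3 starts and H3K27ac at none. In quinone, aldehyde and carbonyl reduction, the role of AKR1C1, neither mark was at 6 of 10 starts (AKR1B10, AKR1C2, AKR1C3, CBR1, ALDH3A1 and EPHX1), near the share over all genes.

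The NRF2 relatives and partners had H3K4me3 at 2 and H3K27ac at 3 of 5 starts, and BACH2, the lymphoid relative of BACH1, had neither. In the degradation machinery, H3K4me3 was at 2 of 3 starts and H3K27ac at none, with neither at BTRC. Of 4 haem and iron genes, 3 had H3K4me3 and 2 had H3K27ac, and BLVRB had neither. Starts without a mark also included PGD of NADPH supply, the efflux pump ABCC2, and TRIM16, SLC6A6 and LACTB2. The highest H3K4me3 values at a start were 8.93 at NFE2L3, 8.36 at PRDX1 and 7.63 at FTH1, all below the 9.32 of GCLM. The highest H3K27ac values were 10.3 at TALDO1, an enzyme of the pentose phosphate pathway, 5.98 at PRDX1 and 4.32 at NFE2L1, and SQSTM1 with 7.64 stood between the first and the others.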

How the data were processed

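The deposited data were 1 list of peaks per mark for 2 of 3 samples, and the input was not analysed here. Per the labels, the submitters' processing notes name Bowtie 1.1.1, MACS2 2.1.0 and hg19 (GRCh37). The threshold, the handling of duplicate or multiply aligned reads and the use of the input in calling are not given in the sources used here. The last column deposited by the authors has no header and was read as the −log10 q-value of each summit from the numbers alone, since its lowest value was just above 1.301, the −log10 of 0.05. Read counts were not used and the depth is unknown.

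The lists held 20282 entries for H3K4me3 and 25275 for H3K27ac. Entries that shared an interval were reduced to 1 peak with the highest value, which left 18585 and 24096 peaks. Gene positions and Ensembl canonical starts came from GENCODE 44 lifted to GRCh37, where 281 of 20162 protein-coding genes had no such start and were left out. The canonical start was used because the outer 5′ ends of several members lie far from it. Sequences were read from the GRCh37 primary assembly with pysam 0.24.0. Multi-copy words were 32 bases long, taken every 20 bases and counted on both strands. Of the 95 peaks in the windows, 73 had no multi-copy word and 13 had over 50% of them. Python 3.11.15, pandas 2.3.3 and scipy 1.17.1 were used, and the counting steps were tested on planted peaks and motifs.

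The members, the other pathway genes and the marker list were chosen with earlier results of these data known. The text names all members, their peaks within 1 kb of the start and the highest peak of each mark in the window, and of the other pathway genes those without a mark, except 1 that is not reported here, and the 3 with the highest values. The search within 10 kb, the neighbouring starts, the CpG ratio and the repeated words were chosen after seeing the data. Alternatives were other distances, starts, windows, overlaps and motif windows, the upper part of each list, and leaving out SQSTM1 and MAFG.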

Additional observations from a re-analysis of the deposited data

How the results depend on the processing

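Of 39 alternative values for 8 results, 20 stayed within the tolerance (a factor of 1.5 for counts, the exact 95% interval for the share) and 19 did not. With only the upper part of each list by its median value, H3K4me3 was at 3 member starts (GCLM, SQSTM1 and MAFG, against 29.5% of all genes) and H3K27ac at 3 (SRXN1, SQSTM1 and MAFG, against 16.2%), the other pathway genes had 17 and 7 marked starts, and the windows held 20 and 33 peaks. With the outer end of the gene as the start, H3K4me3 was at 3 members (38.7% of all genes). Within 3 kb, H3K27ac was at 27 of the 48 other pathway genes, against 31.2% of all genes. Counting only peaks whose nearest start is the member left 15 H3K4me3 and 26 H3K27ac peaks, and joining peaks within 1 kb left 36 H3K27ac peaks. Leaving out SQSTM1 left 33 H3K27ac peaks, and leaving out SQSTM1 and MAFG, a choice made after seeing the data, left 16 and 19 peaks. The share of H3K27ac peaks overlapping H3K4me3 was 21.8% with 50% of both peaks shared, 54.5% within 1 kb, and 21.1% without SQSTM1 and MAFG. Under the 50% and 1 kb rules the share over the whole list was not computed, so those values cannot be set against its 24%. The ARE core was in 12 peaks of both marks together, in 36 with 1000 bp around the centre, and in 3 as TGACTCAGC. A site under peaks of both marks counted for each. With 1000 bp these were 40% of the H3K4me3 and 36.4% of the H3K27ac peaks, against 34.4% and 37.2% of the lists. Each of these alternatives changes by construction what is counted. No paired analysis was possible because the marks have 1 library each and no test was made. The unknown depth limits every statement on a start without a peak.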
